A study of Mus musculus with 24 samples.

Results

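The genes described here are 10 genes known as products of the stromal cells that hold up bone marrow and feed blood formation, of which at least Vcam1 is also made by marrow macrophages: the niche factors Cxcl12, Kitl and Il7, the receptors Lepr and Pdgfrb, the adhesion molecule Vcam1, and the matrix genes Col1a1, Col1a2, Col3a1 and Sparc. They were chosen by name. Every probe whose gene name in the array files was one of these 10 was taken, which gave 23 probes of 41174 on the array, and all 10 genes were among the 24474 genes tested. Marrow RNA of female mice of the strain C57BL/6j, 6 weeks old, was hybridised to 24 two-colour arrays. Each array compared a sample labelled with Cy3 against one common Cy5-labelled reference, a pool of marrow of wild-type mice given oil, with no dye swap.

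The groups were wild-type (WT) mice 6 h after benzo(a)pyrene (BP, 2 arrays), WT mice 12 h after the hydrocarbon DMBA (3 arrays), WT mice 12 h after the dioxin TCDD (3 arrays), mice labelled Cyp1b1-null 12 h after DMBA (2 arrays) or given oil (2 arrays), mice labelled Cyp1a1-null 12 h after BP (3 arrays) or given oil (3 arrays), mice labelled null for both genes (double-null) 12 h after BP (2 arrays) or given oil (1 array), and WT mice given olive oil (3 arrays). Injections were into the peritoneum. A single dose of 50 mg/kg is stated for all agents, and no time is stated for oil. Each sample was a pool of 9, which the labels do not describe further, so p-values measure the spread between arrays of such pools. WT BP lay wholly on slide 4, WT TCDD on slide 6, Cyp1b1-null oil on slide 7 and Cyp1b1-null DMBA on slide 8. Cyp1a1-null oil lay on slide 9 and both double-null groups on slide 10. In such groups that spread is one within a slide. Where no slide holds both groups of a comparison, slide and group cannot be told apart. The labels do not describe how the null alleles were made. BP, DMBA and TCDD are ligands of the aryl hydrocarbon receptor, a transcription factor that induces Cyp1a1 and Cyp1b1, the enzymes that turn BP and DMBA into reactive products.

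In marrow, perivascular mesenchymal cells that carry the leptin receptor Lepr and the platelet-derived growth factor receptor Pdgfrb secrete Cxcl12, which holds blood stem cells and lymphoid precursors in place through the receptor Cxcr4, and Kitl, the ligand of Kit. Il7 sustains B cell precursors, and Vcam1 binds integrins on blood cells. Osteoblasts and fibroblasts lay down type I collagen, built of the chains Col1a1 and Col1a2, and type III collagen from Col3a1, while Sparc binds collagen in the matrix. These cells are few among blood cells, and in whole marrow fewer cells of a type and less RNA per cell cannot be told apart.

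Sequences are shown for the probes on which the results below turn, since probes of a gene did not always give one value. The first 30 bases of each 60-base probe, as the array files print it, were as follows, with each gene's chromosome.
Cxcl12 (chromosome 6), probe used: aggagaaggcagcttcctatatgcagcgtg
Cxcl12 (chromosome 6), second probe: gaattaatcataaacggaagtttaaatgag
Col3a1 (chromosome 1), probe used: ataagccaaactctctgaaaccccagcaaa
Col3a1 (chromosome 1), second probe: gccagaaccatgtcaaatatgtgtctgtga
Vcam1 (chromosome 3), probe used: tatatttttataggcaaatggtaaagaggt
Vcam1 (chromosome 3), second probe: aaccaagagtttggaagtaacctttactcc
Col1a1 (chromosome 11), probe used: ttttcctttgcattcacctttcaaacttag
The 2 Cxcl12 probes carry the accessions of different transcripts of the gene, NM_001012477 for the probe used and NM_021704 for the second. Both Col3a1 probes carry NM_009930 and both Vcam1 probes carry NM_011693.

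The 250 bases before the start of 3 genes are shown because BP, DMBA and TCDD act through the aryl hydrocarbon receptor, whose core motif is GCGTG (both strands searched). The sequences are those of RefSeq in GRCm38.p6, read 5′ to 3′ in the direction of the gene, with capitals marking that motif, the CCAAT box or the TATAAA box on either strand.
Cxcl12, chr6:117168285-117168534, plus strand: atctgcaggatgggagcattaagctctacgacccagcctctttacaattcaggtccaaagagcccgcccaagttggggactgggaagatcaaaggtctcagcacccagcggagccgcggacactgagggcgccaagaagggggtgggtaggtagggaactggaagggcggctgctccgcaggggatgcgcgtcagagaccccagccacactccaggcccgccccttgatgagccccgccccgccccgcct
Col1a2, chr6:4505368-4505617, plus strand: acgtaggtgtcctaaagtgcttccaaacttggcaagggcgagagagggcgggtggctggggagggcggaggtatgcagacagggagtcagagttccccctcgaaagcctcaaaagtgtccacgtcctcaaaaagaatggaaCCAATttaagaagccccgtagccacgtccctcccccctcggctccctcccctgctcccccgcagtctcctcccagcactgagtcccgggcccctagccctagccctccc
Col3a1, chr1:45311288-45311537, plus strand: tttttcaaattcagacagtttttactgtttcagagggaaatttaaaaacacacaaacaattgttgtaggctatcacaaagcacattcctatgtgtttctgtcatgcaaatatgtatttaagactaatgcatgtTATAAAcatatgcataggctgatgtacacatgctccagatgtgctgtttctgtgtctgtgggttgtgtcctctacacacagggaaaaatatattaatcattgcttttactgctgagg
None of these 3 windows held GCGTG or, as the reverse complement, CACGC, which 28.2% of 32851 such windows in the table hold. The Col1a2 window held CCAAT, which with its reverse complement ATTGG is found in 33.8% of windows, and the Col3a1 window held TATAAA, found with TTTATA in 12.4%. Windows were given for 6 of the genes, Lepr having 2, and GCGTG or CACGC stood once in the Kitl window and once in 1 of the Lepr windows.

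Before the results, the arrays themselves. The probe for Cyp1a1 was well above background in Cy3 on 0 of 6 arrays labelled Cyp1a1-null and 0 of 3 labelled double-null, against 8 of 11 WT arrays. The probe for Cyp1b1 was well above background on 4 of 4 arrays labelled Cyp1b1-null and 3 of 3 labelled double-null, against 7 of 11 WT arrays. It is not stated whether that probe lies in the deleted part, so it does not check those labels. Genes of blood cells were high on every array, with Mpo, an enzyme of neutrophil granules, at or above the 99.6th percentile of probes. The 5th percentile of log2 Cy3 was 7.71 to 8.88 on WT TCDD replicates 1 and 2 and both arrays labelled Cyp1b1-null DMBA, and 5.78 to 6.51 on the other 20 arrays, which touches dim members most. Log ratios of 2 arrays correlated across probes at a mean r of 0.64 for arrays of different groups on the same slide and of 0.20 for arrays of one group on different slides. The lowest correlation between 2 arrays was -0.35, between replicate 1 of oil-treated mice labelled Cyp1b1-null and WT oil replicate 3, and the labels give the same dyes for both.

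WT oil replicate 1 stood apart, and 6 of the 10 genes show it in the Cy5 channel. Its log2 Cy5 signal of Cxcl12, above the array's 75th percentile, was 5.34, against 0.18 to 1.77 on the other 23 arrays, although the Cy5 sample is labelled as the same pool on all of them. Its Cy3 signal of Cxcl12 was 0.72, within the range of -0.48 to 2.08 elsewhere. The Cy5 signals of Col3a1, Sparc, Col1a1, Pdgfrb and Col1a2 were likewise above all other arrays, at 2.48, 2.20, 1.62, 1.29 and 1.16, while no member had a Cy3 signal above all others there. Vcam1 went the other way, with a Cy5 signal of 0.04 against 0.41 to 2.30 elsewhere. A list of 14 liver genes had a median Cy5 signal of 7.26 and a median Cy3 signal of 3.34 on this array, against at most -0.18 and -0.37 elsewhere, and the median Cy5 signal of 18 endothelial genes was 0.71, against at most -0.13. The lists for megakaryocytes and for receptors on blood cells were low in that channel. Their median Cy5 signals were -1.93 for 16 megakaryocyte genes, against at least -0.35 elsewhere, and -1.56 for 15 receptors, against at least -0.01. The list of 15 marrow macrophage genes went the other way, with a median of 1.34 against 0.14 to 0.95 elsewhere. For 9 adipocyte genes it was 0.40, against at most -0.14. The log ratio of Mpo was 6.57 there and that of Ptprc, the leukocyte antigen CD45, was 5.07. The part of liver, vessel or blood RNA in the members' values was not tested. Log ratios of 7 of the 10 members were lower on this array than on any other, and the share of all genes was not counted for this either. Each comparison with WT oil is therefore given with this array and without it.

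**Figure D1:**
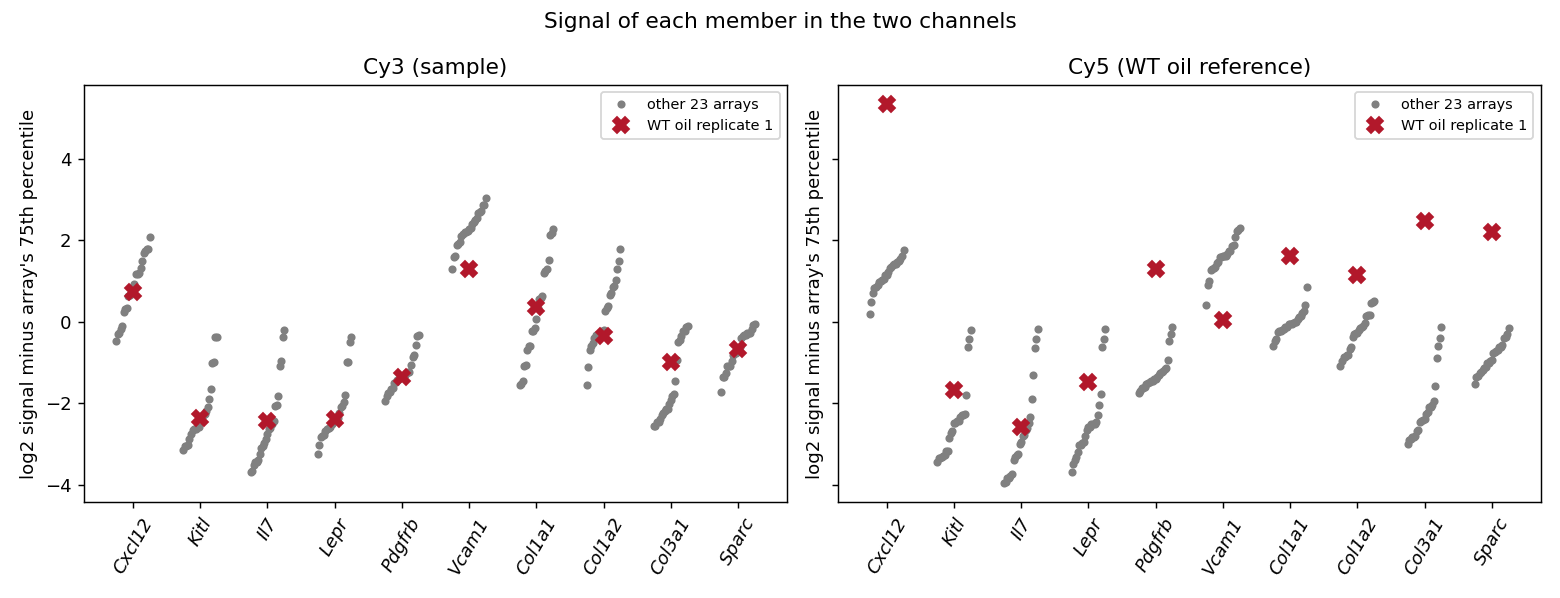
Log2 Cy3 signal (left) and Cy5 signal (right) of the 10 genes, each minus the 75th percentile of its array; crosses are WT oil replicate 1 and points the other 23 arrays. In Cy5 the cross for Cxcl12 is at 5.34, above the other arrays' 0.18 to 1.77, while in Cy3 it is among them.

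The first question was how the niche factors varied over the groups. Cxcl12, the chemokine that holds blood stem cells and lymphoid precursors, was well above background on 24 of 24 arrays. Its log ratio (log2 of Cy3 over Cy5) was -0.44 and -0.93 after BP in WT mice, -0.20, 0.01 and 0.00 after DMBA, and -0.61, -0.87 and -1.32 after TCDD, against -4.05, -0.38 and -0.44 with oil. The TCDD arrays were all below the DMBA arrays and below WT oil replicates 2 and 3. Groups were separate between DMBA and TCDD for 31.9% of all genes. That share was not counted for TCDD against those oil arrays. The TCDD arrays all lay on slide 6, and TCDD replicates 1 and 2 had the raised 5th percentile of Cy3 given above. The arrays labelled Cyp1b1-null had 1.41 and -0.37 after DMBA, against 0.35 and 0.68 with oil. Those labelled Cyp1a1-null had -0.44, 0.55 and 0.39 after BP, against 0.47, 0.40 and -0.46 with oil, and the double-null arrays had -1.23 and -0.56 after BP, against 0.36 with oil. Both double-null BP arrays were thus below the 1 oil array. The share of all genes for which those 2 groups did not overlap was not counted, so nothing is read from that. The Cyp1a1-null groups overlapped.

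No difference in Cxcl12 passed the test with or without WT oil replicate 1. Alternative settings called it at most 2 times for any comparison, among them 2 of 20 for DMBA against TCDD. DMBA minus TCDD was 0.87 ± 0.71 with all arrays (limma, adjusted p = 0.854) and 0.87 ± 0.37 without that array (adjusted p = 0.199). Double-null BP minus oil was -1.25 ± 1.06 with all arrays (limma, adjusted p = 1) and -1.25 ± 0.56 without it (adjusted p = 0.436). The difference between oil-treated mice labelled Cyp1b1-null and WT oil was 2.14 ± 0.79 with all arrays, and 0.92 ± 0.46 without WT oil replicate 1. In order of group means, without that array, Cxcl12 was highest in Cyp1b1-null DMBA (0.52) and Cyp1b1-null oil (0.51), then double-null oil (0.36), Cyp1a1-null BP (0.17), Cyp1a1-null oil (0.14), WT DMBA (-0.06), WT oil (-0.41), WT BP (-0.69), double-null BP (-0.89) and WT TCDD (-0.93). Standard deviations within groups were 0.05 to 1.26, and most neighbours in that order differ by less than them. The second probe had a log ratio of -3.75 on WT oil replicate 1, and over the other 23 arrays it correlated with the first at r = 0.75, as a description.

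Kitl, Il7 and the receptor Lepr were near the background of the array. Kitl, the Kit ligand, was well above it on 13 of 24 arrays, Lepr on 12 and Il7 on 4. Without WT oil replicate 1 the log ratios ran from -0.18 to 0.32 for Kitl, from -0.36 to 0.31 for Il7 and from -0.23 to 0.52 for Lepr. Kitl and Lepr were each well above background on 3 of 3 DMBA arrays and on 0 of 3 TCDD arrays, 2 of which have the raised 5th percentile of Cy3 given above. The mean log2 Cy3 signal, minus the array's 75th percentile, ran the other way, at -2.45 after DMBA and -0.88 after TCDD for Kitl, and at -2.55 after DMBA and -0.95 after TCDD for Lepr. No direction can be read for these genes between DMBA and TCDD, and neither log ratio passed the test (limma, adjusted p = 0.916 for Kitl and 0.867 for Lepr). Lepr after TCDD was -0.12, -0.02 and -0.23, against -1.07, 0.06 and 0.52 with oil. Of these 6 arrays only WT oil replicate 2 had a Lepr signal well above background, so the difference is not given. In mice labelled Cyp1a1-null Lepr was -0.11, -0.09 and -0.02 after BP, against 0.25, -0.01 and 0.18 with oil, and in double-null mice -0.10 and -0.06 after BP, against 0.52 with oil. In the double-null mice both BP arrays were below the 1 oil array, where the share of all genes with separate groups was not counted. Neither difference passed the test.

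Pdgfrb, a receptor of perivascular cells, was well above background on 23 arrays. Its log ratio was -0.30 and -0.18 after BP in WT mice, -0.09, 0.03 and 0.02 after DMBA, and -0.06, -0.07 and -0.21 after TCDD, against -2.54, 0.09 and -0.52 with oil. In mice labelled Cyp1a1-null it was -0.17, 0.43 and 0.14 after BP, against -0.12, 0.06 and -0.05 with oil. Double-null arrays had -0.21 and -0.17 after BP, against 0.32 with oil. Apart from WT oil replicate 1 all values of Pdgfrb lay between -0.52 and 0.43. No comparison called it with all arrays or without WT oil replicate 1. Some alternative settings called it, at most 2 of 20 for a comparison, that of WT TCDD with WT oil.

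Vcam1, the integrin ligand on stromal and endothelial cells, was above the Cy5 pool on all 24 arrays by the probe used, while the second probe ran from -0.39 to 1.16. Its log ratio was 1.21 and 1.46 in oil-treated mice labelled Cyp1b1-null, against 1.45, 0.50 and 0.55 in WT oil. It was 1.46, 1.48 and 1.08 in mice labelled Cyp1a1-null after BP, against 0.64, 0.30 and 0.48 with oil, and these 2 groups did not overlap. The share of all genes with separate groups there was not counted, so nothing is read from that. The double-null arrays had 1.16 and 1.21 after BP, against 1.30 with oil. In WT mice Vcam1 was 1.07 and 0.86 after BP, 0.74, 0.50 and 1.06 after DMBA and 0.35, 0.66 and 0.98 after TCDD. Mice labelled Cyp1b1-null had 1.20 and 0.81 after DMBA. Group means were highest in Cyp1a1-null BP (1.34), Cyp1b1-null oil (1.33) and double-null oil (1.30), neighbours that differ by less than their spread, and lowest in Cyp1a1-null oil (0.47).

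In the fits with and without WT oil replicate 1, Vcam1 passed the test in 1 comparison, that of oil-treated mice labelled Cyp1b1-null with WT oil. It did so only without WT oil replicate 1. The difference was 0.81 ± 0.21 without that array (limma, adjusted p = 0.00969) and 0.50 ± 0.26 with it (adjusted p = 0.195). Over 19 alternatives it was called in 4, and adjusted p ran from 0.00969 to 0.853. Both arrays labelled Cyp1b1-null with oil lay on slide 7, and with slide as a random block the difference without WT oil replicate 1 was 0.61 (adjusted p = 0.187). The other Vcam1 probes, the second one shown above and 1 more, differed by 0.10 and 0.27 in the same comparison without that array. For Cyp1a1-null BP minus oil the difference was 0.87 ± 0.17 without WT oil replicate 1 (limma, adjusted p = 0.0542) and 0.87 ± 0.23 with it (adjusted p = 0.201), and there the second probe gave 0.81. Over 21 alternatives this BP difference was called in 2. BP replicates 1 and 2 lay on slide 7. BP replicate 3 shared slide 9 with the 3 oil arrays, and within slide 9 Vcam1 was 1.08 after BP, against a mean of 0.47 with oil.

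**Figure D2:**
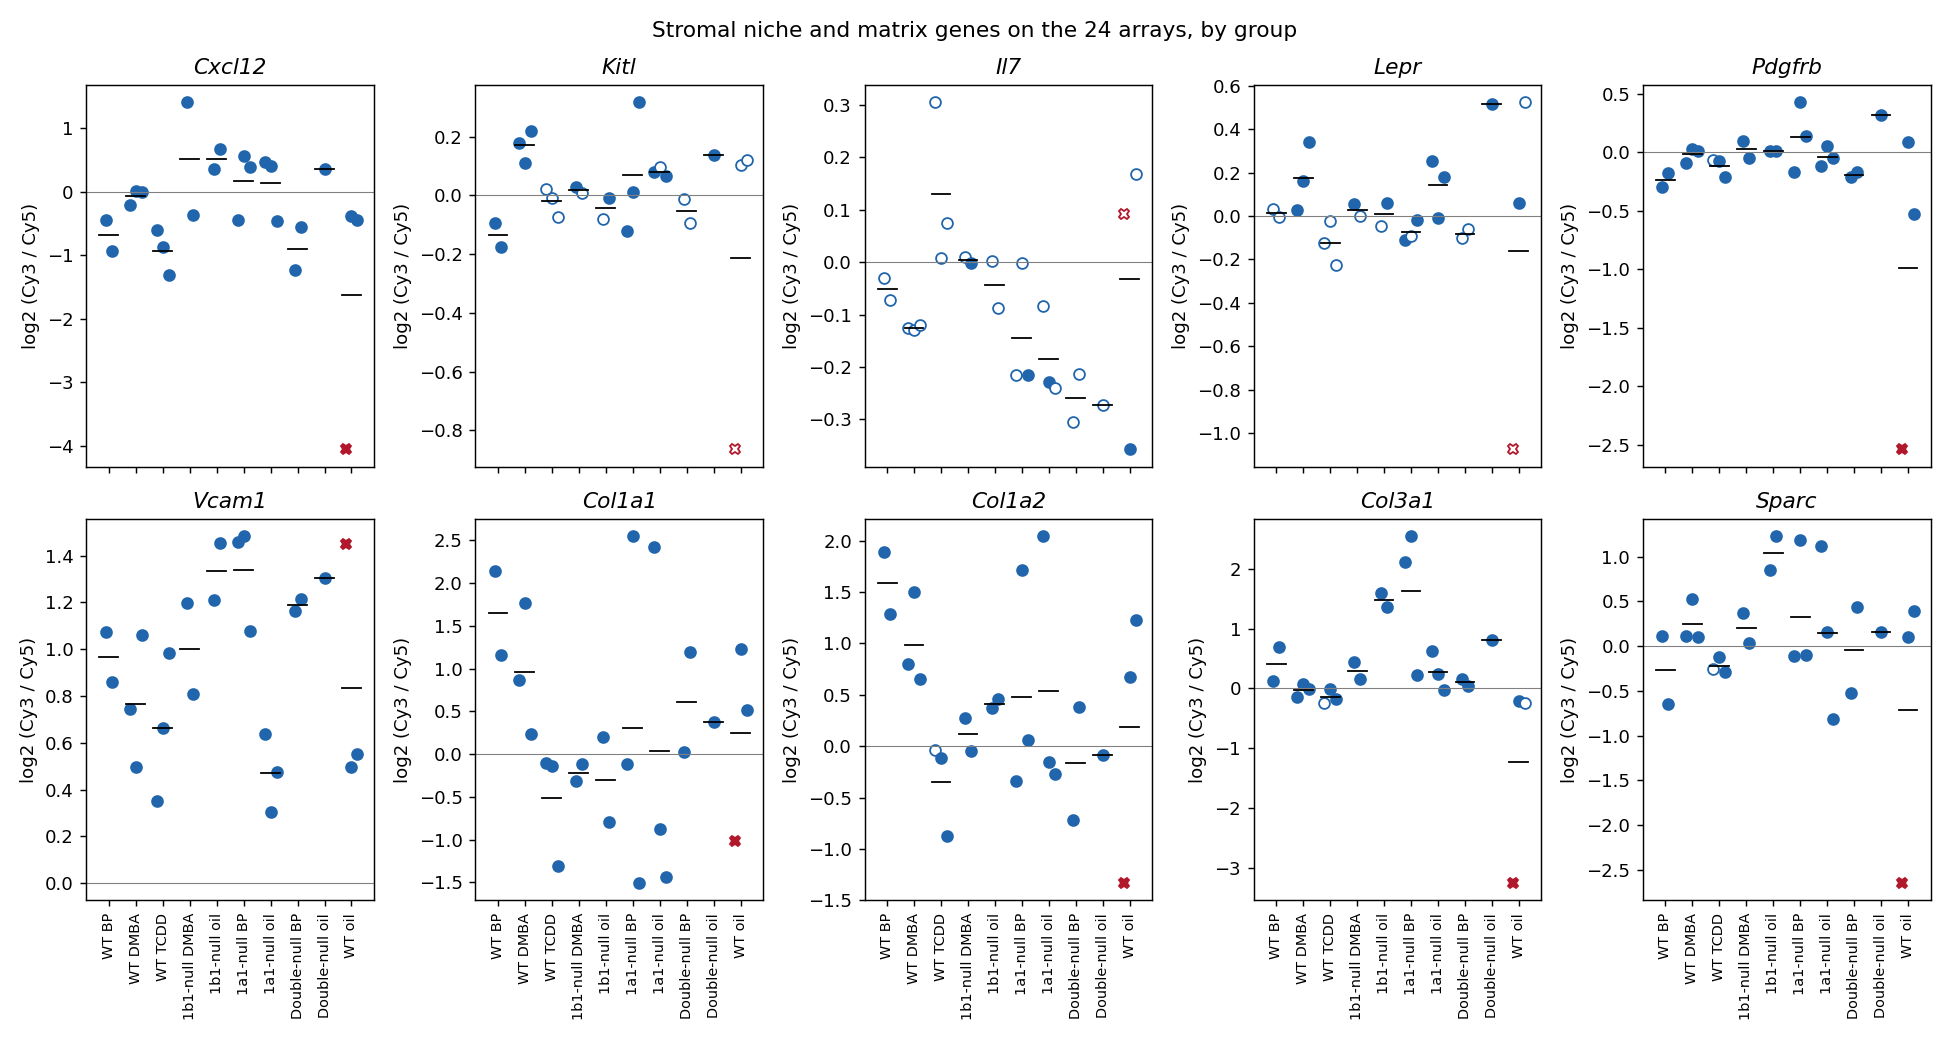
Log ratio of the 10 genes on each of the 24 arrays, by group; bars are group means, filled points are well above background in Cy3, open points are not, and red crosses are WT oil replicate 1. Cxcl12 ran from -1.32 to 1.41 without that array, and Col1a1 from -1.51 to 2.55.

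The chains of type I collagen varied as much within groups as between them. The Col1a1 log ratio was 2.14 and 1.15 after BP in WT mice, 0.86, 1.77 and 0.23 after DMBA, and -0.10, -0.14 and -1.31 after TCDD, against -1.01, 1.22 and 0.52 with oil. It was -0.12, 2.55 and -1.51 in mice labelled Cyp1a1-null after BP, against 2.43, -0.87 and -1.44 with oil. The lowest and highest values of Col1a1 over 23 arrays thus lay within 1 group. Arrays labelled Cyp1b1-null had -0.32 and -0.11 after DMBA, against 0.20 and -0.80 with oil, and double-null arrays 0.03 and 1.20 after BP, against 0.38 with oil.

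Col1a2, the partner chain, was high on many of the arrays where Col1a1 was high. It was 1.89 and 1.29 after BP in WT mice, 0.80, 1.50 and 0.66 after DMBA and -0.04, -0.12 and -0.87 after TCDD, against -1.33, 0.68 and 1.22 with oil. Its values were -0.34, 1.72 and 0.06 in mice labelled Cyp1a1-null after BP, against 2.04, -0.15 and -0.27 with oil. Arrays labelled Cyp1b1-null had 0.28 and -0.05 after DMBA, against 0.37 and 0.46 with oil, and double-null arrays had -0.72 and 0.39 after BP, against -0.09 with oil. Over the 23 arrays without WT oil replicate 1 the chains correlated at r = 0.84, as a description, and at 0.84 over 19 arrays without slide 7 as well. Group accounted for 30.2% of the variance of Col1a1 and 48.5% of that of Col1a2 over those arrays, with residual standard deviations within groups of 1.28 and 0.76.

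Neither chain passed the test in any of the 12 comparisons or 2 differences of responses, with all arrays or without WT oil replicate 1. Over 20 alternatives Col1a2 was called in 3 for WT DMBA against WT TCDD and in 1 for WT TCDD against WT oil. Col1a1 was called in 0 for both. DMBA minus TCDD was 1.47 ± 0.98 for Col1a1 (limma, adjusted p = 0.767) and 1.33 ± 0.67 for Col1a2 (adjusted p = 0.598), and without WT oil replicate 1 the adjusted p were 0.431 and 0.183. All 3 DMBA arrays lay above all 3 TCDD arrays for both chains. Of the 10 genes 7 had such separate groups there, and so did 31.9% of all genes tested. The TCDD arrays all lay on slide 6, and TCDD replicates 1 and 2 had the raised 5th percentile of Cy3 given above. Col1a2 was well above background on 2 of the 3 TCDD arrays. WT TCDD minus WT oil was -1.39 ± 1.03 for Col1a1 and -1.29 ± 0.62 for Col1a2 without WT oil replicate 1 (limma, adjusted p = 0.418 and 0.201).

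Col3a1, the chain of type III collagen, was the one member called with all 24 arrays. Its log ratio was 1.60 and 1.36 in oil-treated mice labelled Cyp1b1-null, against -3.26, -0.20 and -0.24 in WT oil. The difference was 2.71 ± 0.71 (limma, adjusted p = 0.0193), and 1.70 ± 0.46 without WT oil replicate 1 (adjusted p = 0.0123). Over 19 alternatives the difference ran from 0.85 to 4.26, was called in 13, and had adjusted p from 0.00642 to 0.481. Both arrays labelled Cyp1b1-null with oil were above every WT oil array. The share of all genes with separate groups there was not counted, so nothing is read from that separation. After DMBA the mice labelled Cyp1b1-null had 0.44 and 0.15, against those 1.60 and 1.36 with oil, a difference of -1.18 ± 0.77 that did not pass the test (limma, adjusted p = 0.579, and 0.122 without WT oil replicate 1). The DMBA arrays lay on slide 8 and the oil arrays on slide 7, and both DMBA arrays were among those named above for raised low Cy3 signals. On the scale of the channel signals above, the mean Cy5 signal of Col3a1 was -2.86 with oil and -0.26 after DMBA. The mean Cy3 signal was -0.72 with oil and -0.22 after DMBA, so no fall of Col3a1 is read from the ratio.

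High Col3a1 also moved with 1 slide. The 4 arrays of slide 7 were the 2 of oil-treated mice labelled Cyp1b1-null and 2 of the 3 labelled Cyp1a1-null after BP, and Col3a1 was 1.36 to 2.55 on them, against -0.25 to 0.81 on the other 19 arrays without WT oil replicate 1. Replicate 3 of Cyp1a1-null BP lay on slide 9 and had 0.23, against 0.62, 0.24 and -0.03 for Cyp1a1-null oil on the same slide. No WT oil array lay on slide 7, so slide and genotype cannot be told apart within it. With slide as a random block the Cyp1b1-null oil difference was 1.65 (adjusted p = 0.481). Leaving out WT oil replicate 1 as well gave 1.03 (adjusted p = 0.196). The second Col3a1 probe gave 0.18 and 0.24 in oil-treated mice labelled Cyp1b1-null, against 0.41, 0.15 and -0.09 in WT oil, and 1.10, 0.63 and -0.01 in mice labelled Cyp1a1-null after BP, against -0.02, -0.13 and -0.01 with oil. Its difference for Cyp1b1-null oil was 0.05, and 0.18 without WT oil replicate 1, so the probes disagreed. Vcam1 was also high on slide 7, at 1.21 to 1.48, against 0.30 to 1.30 on those 19 arrays.

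**Figure D3:**
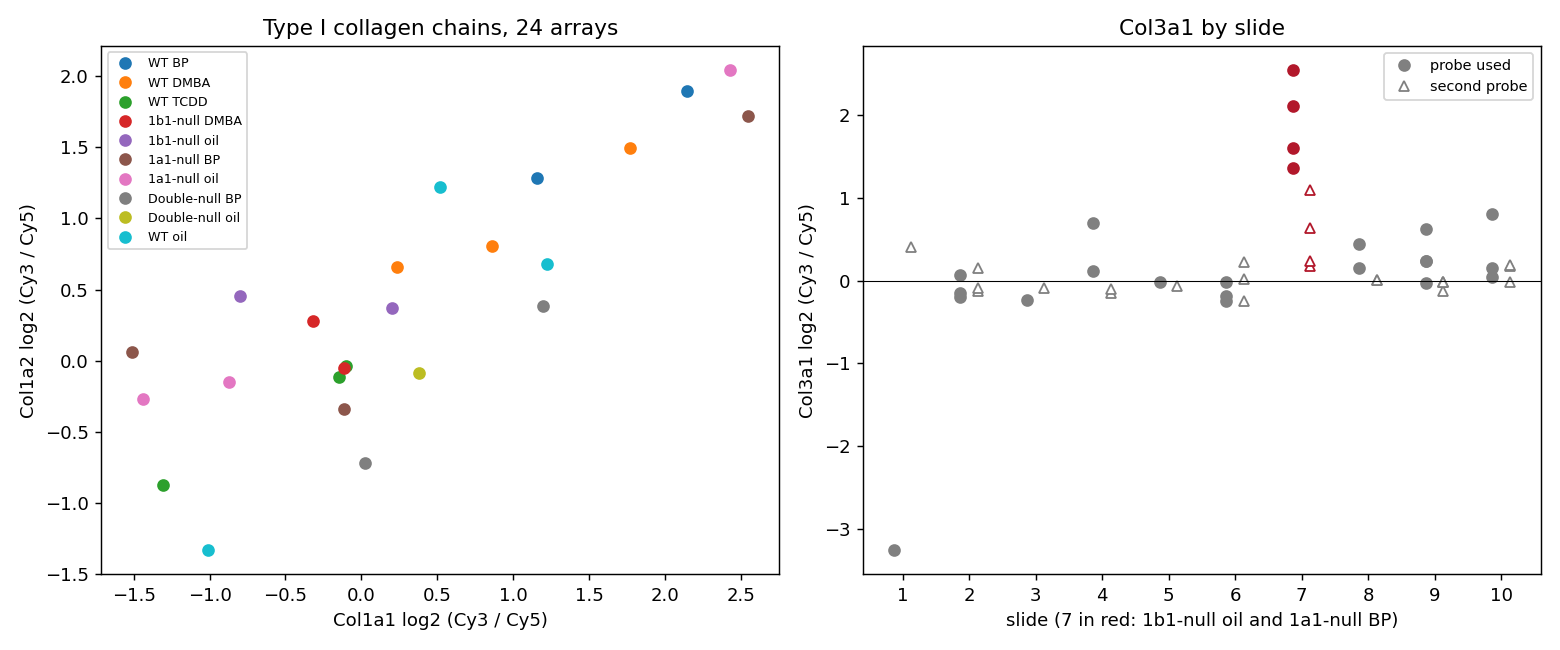
Left, Col1a2 against Col1a1 log ratios on the 24 arrays, coloured by group; right, Col3a1 log ratios by slide for the probe used (circles) and the second probe (triangles), slide 7 in red. On slide 7 the probe used gave 1.36 to 2.55 and the second probe 0.18 to 1.10.

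Col3a1 in mice labelled Cyp1a1-null was 2.12, 2.55 and 0.23 after BP, against those 3 oil values, a difference of 1.36 ± 0.63 (limma, adjusted p = 0.320), and 1.36 ± 0.38 without WT oil replicate 1 (adjusted p = 0.0715). Double-null BP arrays, at 0.16 and 0.05, were below Cyp1a1-null BP by 1.53 ± 0.42 on the log2 scale in the fit without that array (limma, adjusted p = 0.0536). In the fit with all arrays the lowest adjusted p of any member in this comparison was 0.418. The Cyp1a1-null BP values of 2.12 and 2.55 came from slide 7. The 0.23 came from slide 9 and was close to the double-null BP values, which came from slide 10. No slide held both groups, so slide and group cannot be told apart. The double-null oil array had 0.81. In WT mice Col3a1 was 0.12 and 0.70 after BP, -0.14, 0.07 and -0.01 after DMBA, and -0.25, -0.01 and -0.18 after TCDD.

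Sparc, a collagen-binding matrix protein, had its highest group mean in oil-treated mice labelled Cyp1b1-null. Its log ratio was 0.85 and 1.23 there, against -2.65, 0.10 and 0.39 in WT oil. The difference was 1.76 ± 0.70 with all arrays (limma, adjusted p = 0.0978) and 0.80 ± 0.50 without WT oil replicate 1 (adjusted p = 0.241). Sparc was -0.11, 1.19 and -0.10 in mice labelled Cyp1a1-null after BP, against 1.11, 0.15 and -0.82 with oil, so that these groups overlapped between -0.11 and 1.11. In WT mice it was 0.11 and -0.65 after BP, 0.11, 0.53 and 0.10 after DMBA, and -0.25, -0.12 and -0.28 after TCDD. Arrays labelled Cyp1b1-null had 0.37 and 0.04 after DMBA, and double-null arrays had -0.52 and 0.44 after BP, against 0.16 with oil. All 3 TCDD arrays lay below all 3 DMBA arrays, as groups were separate there for 31.9% of all genes, and below WT oil replicates 2 and 3. Between TCDD and those oil arrays the share of all genes with separate groups was not counted, so nothing is read from that. Sparc was well above background on 2 of the 3 TCDD arrays. These all lay on slide 6, and replicates 1 and 2 had the raised 5th percentile of Cy3 given above.

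Counted by comparison, few members were called with all arrays or without WT oil replicate 1. In oil-treated mice labelled Cyp1b1-null against WT oil, 1 of 10 members was called with all arrays, where 15.4% of all genes were called, and 2 of 10 without WT oil replicate 1, where 29.6% were. Both rose. In the other 11 comparisons and both differences of responses limma called 0 of 10 members in either fit. With all arrays the share of all genes called was 0.735% for WT BP, 0% for WT DMBA and 2.12% for WT TCDD against WT oil, 3.58% for Cyp1a1-null oil and 1.57% for double-null oil against WT oil, 0.0245% for Cyp1b1-null DMBA against oil, 0.0327% for Cyp1a1-null BP against oil and 0.282% for double-null BP against oil. It was 0.646% for WT DMBA against WT TCDD, 0.102% for Cyp1b1-null DMBA against WT DMBA, 0.163% for double-null BP against Cyp1a1-null BP, and 0.00817% and 0.135% for the differences of DMBA and BP responses. Without WT oil replicate 1 these shares were, in the same order of comparisons, 3.87%, 0.0981%, 6.12%, 7.58%, 6.12%, 7.47%, 0.155%, 0.519%, 6.25%, 1.55%, 3.62%, 3.05% and 0.204%. Other arrays moved the counts too. Without WT oil replicate 2, limma called 4 members for Cyp1b1-null oil against WT oil, where 24.8% of all genes were called, and 4 for Cyp1a1-null oil against WT oil, where 20.7% were. It then called 1 member each for double-null oil, WT DMBA and WT TCDD against WT oil, beside 6.71%, 3.44% and 17.7% of all genes. Without WT oil replicate 3 it called 3 members for Cyp1b1-null oil and 1 for Cyp1a1-null oil, beside 16.2% and 16% of all genes. Without Cyp1b1-null oil replicate 1 or replicate 2 it called 0 members for Cyp1b1-null oil, beside 1.12% and 0.842%. Without Cyp1a1-null BP replicate 3 it called 2 for Cyp1a1-null BP against oil, beside 14.9%. At an unadjusted p under 0.05 the 11 comparisons and 2 differences of responses with no call held 0 to 3 members with all arrays, beside 4.34% to 25.2% of all genes, and 0 to 4 without WT oil replicate 1, beside 8.99% to 25.1%. Cyp1b1-null oil against WT oil held 4 with all arrays, beside 31.9% of all genes, and 2 without WT oil replicate 1, beside 40.8%.

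WT oil replicate 1 turned the sign of many differences with WT oil. With it, 9 of 10 members were positive for WT BP, 7 for WT TCDD and 7 for Cyp1a1-null oil, and without it 5, 4 and 3 were. The median over members was 0.60 for WT BP with all arrays and 0.01 without WT oil replicate 1, beside 0.01 and 0.02 for all genes. For oil-treated mice labelled Cyp1b1-null it was 0.36 and 0.14, beside 0.06 and 0.06. The difference of DMBA responses, Cyp1b1-null minus WT, had a member median of -0.80 with all arrays and -0.26 without WT oil replicate 1, with 0 members called. The double-null minus Cyp1a1-null difference of BP responses was negative for 10 of 10 members, with a median of -0.38 beside -0.07 for all genes, and 0 members called. Its member values ran from -2.07 to -0.02, and the share of all genes below 0 was not counted. The difference rests on 1 double-null oil array. Cyp1a1-null BP replicates 1 and 2 lay on slide 7, and the Cyp1a1-null oil arrays on slide 9.

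**Figure D4:**
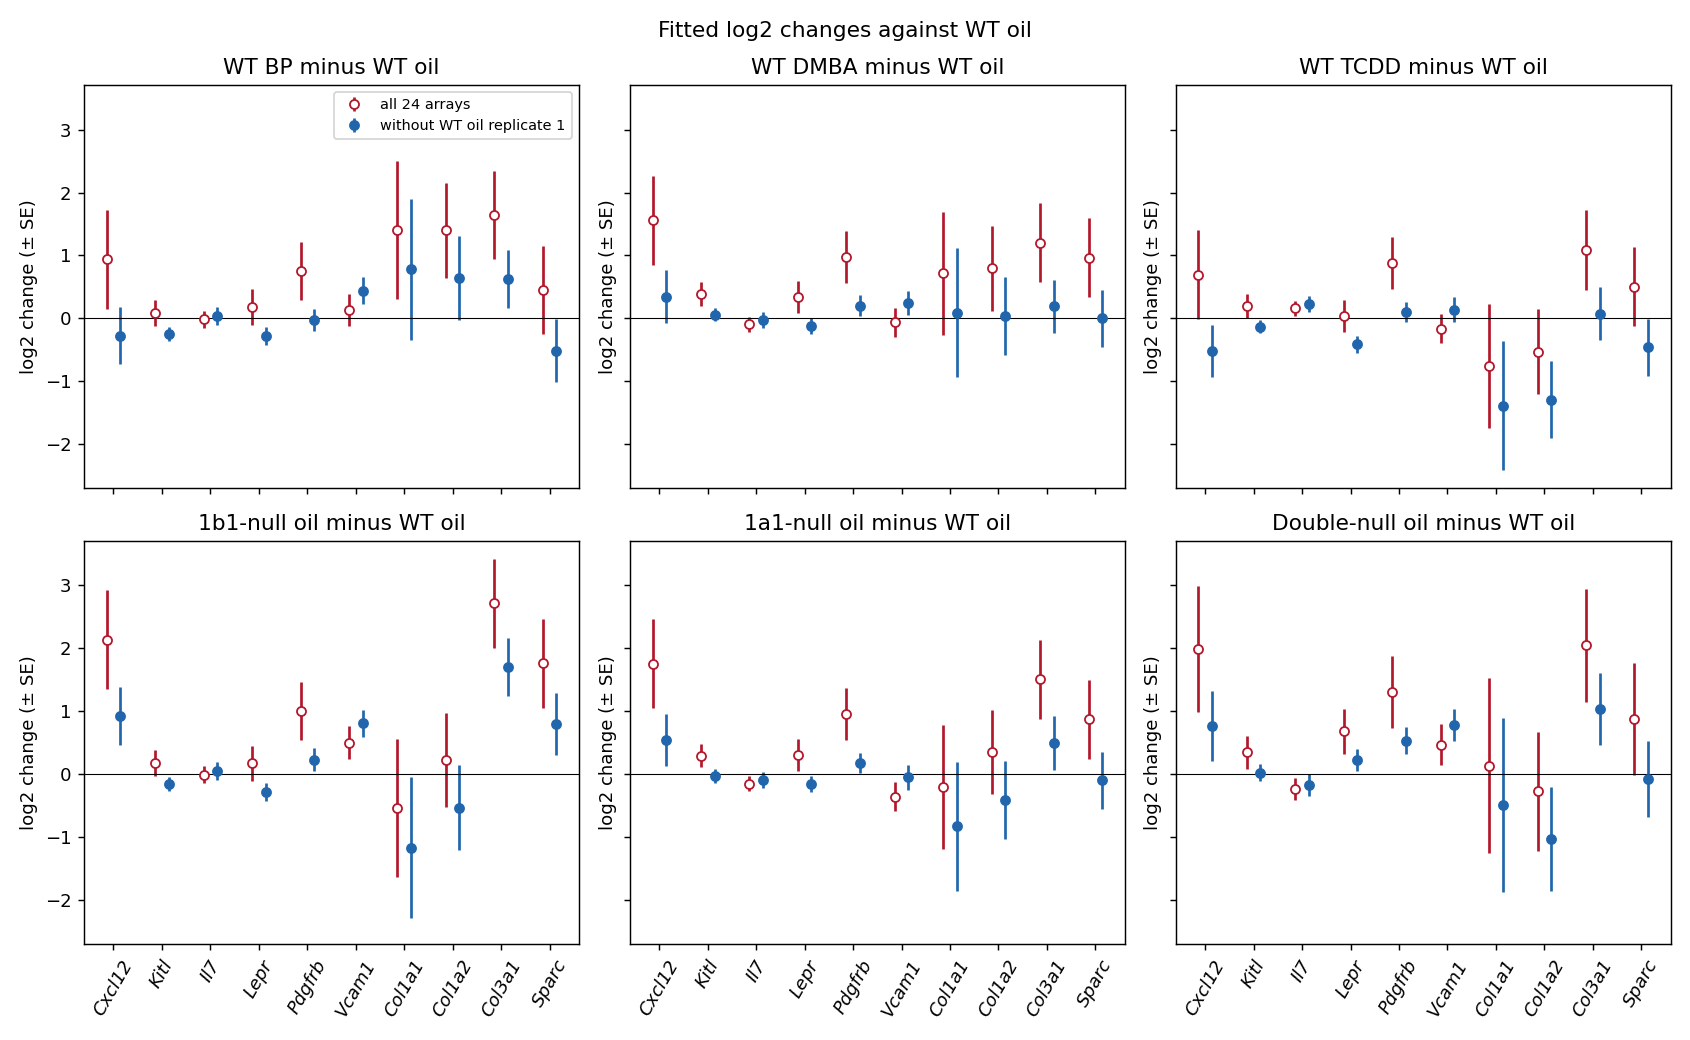
Fitted log2 changes against WT oil (points, with SE bars) for the 10 genes in 6 comparisons, with all 24 arrays (open) and without WT oil replicate 1 (filled). For Cxcl12 in oil-treated mice labelled Cyp1b1-null the change was 2.14 with all arrays and 0.92 without that array.

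Lists of related genes were counted in the same fits. For Cyp1b1-null oil against WT oil their counts stand beside 15.4% of all genes called with all arrays and 29.6% without WT oil replicate 1. Of 43 tested genes for collagens, matrix and collagen processing, 9 rose and 4 fell in oil-treated mice labelled Cyp1b1-null against WT oil without WT oil replicate 1, and 9 rose and 1 fell with it. Those with the smallest adjusted p without it were Col15a1, a basement membrane collagen (1.70 ± 0.33, adjusted p = 0.00205), Serpinh1, the collagen chaperone (1.44 ± 0.29, adjusted p = 0.00251), Col4a1, a chain of basement membrane collagen (2.48 ± 0.51, adjusted p = 0.00298), and Bmp1, which cleaves procollagen (1.27 ± 0.27, adjusted p = 0.00315). The list's median was 0.04, beside 0.06 for all genes. Of 32 genes for niche factors of stromal cells, which include 6 members, 9 rose and 2 fell in that comparison without WT oil replicate 1, and 6 rose and 2 fell with it. Nes, an intermediate filament of perivascular cells (2.57 ± 0.53, adjusted p = 0.00297), and Bmp4, a bone morphogenetic protein (0.98 ± 0.22, adjusted p = 0.00440), rose, and Spp1, the matrix protein osteopontin (-0.76 ± 0.18, adjusted p = 0.00605), fell. Both arrays labelled Cyp1b1-null with oil lay on slide 7, so slide and group cannot be told apart for these lists.

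Genes of other cells were called there too, in shares that stand beside the same 29.6% of all genes. Without WT oil replicate 1, 5 of 18 endothelial genes rose and 1 fell, 5 of 16 genes of osteoblasts and osteocytes rose and 0 fell, 4 of 9 adipocyte genes rose and 0 fell, and 6 of 15 macrophage genes, among them the member Vcam1, rose and 1 fell. Of 16 megakaryocyte genes 2 rose, of 14 liver genes 2 rose, of 10 cartilage genes 1 rose, and of 11 skeletal muscle genes 2 rose and 1 fell. Among 15 receptors on blood cells for niche factors 2 rose and 2 fell. The part of these cells in the values of the 10 members was not tested.

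In WT mice the niche list held a few calls under treatment. Csf1, the macrophage growth factor, rose after BP by 0.98 ± 0.12 without WT oil replicate 1 (limma, adjusted p = 0.000766) and by 0.76 ± 0.16 with it (adjusted p = 0.0401). After TCDD 1 of the 32 niche genes rose and 1 fell without that array, beside 6.12% of all genes called. The one that fell was Spp1, by 1.31 ± 0.17 on the log2 scale (adjusted p = 0.00195). DMBA minus TCDD was 2.10 ± 0.15 for Spp1 in the same fit (adjusted p = 2.18e-06). Spp1 also fell in Cyp1a1-null oil against WT oil, by 1.50 ± 0.17 on the log2 scale (adjusted p = 0.000105). The collagen and matrix list held 0 calls for WT BP, WT DMBA and WT TCDD against WT oil in either fit.

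Among members, the pairs that moved together most over 23 arrays, after the type I collagen chains, were Vcam1 and Col3a1 (r = 0.68), Cxcl12 and Sparc (0.67) and Cxcl12 and Pdgfrb (0.60). Without slide 7, over 19 arrays, these were 0.41, 0.57 and 0.56. These arrays share their reference and many share a slide, so the correlations are descriptions. Over all tested genes the 5 most like Cxcl12 over 23 arrays were Adamts2 (r = 0.85), Agt (0.83), Esm1 (0.80), Kcnj8 (0.80) and Epas1 (0.79). Those most like Col1a1 were Bglap (0.87), which encodes the osteoblast protein osteocalcin, its near-identical neighbour Bglap3 (0.85), Col1a2 (0.84), a transcript named only as ENSMUST00000113326 (0.74) and Ly6d (0.73). Bglap and Bglap3 may share signal. Cxcl12 and Col1a1 correlated with each other at r = 0.07.

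**Figure D5:**
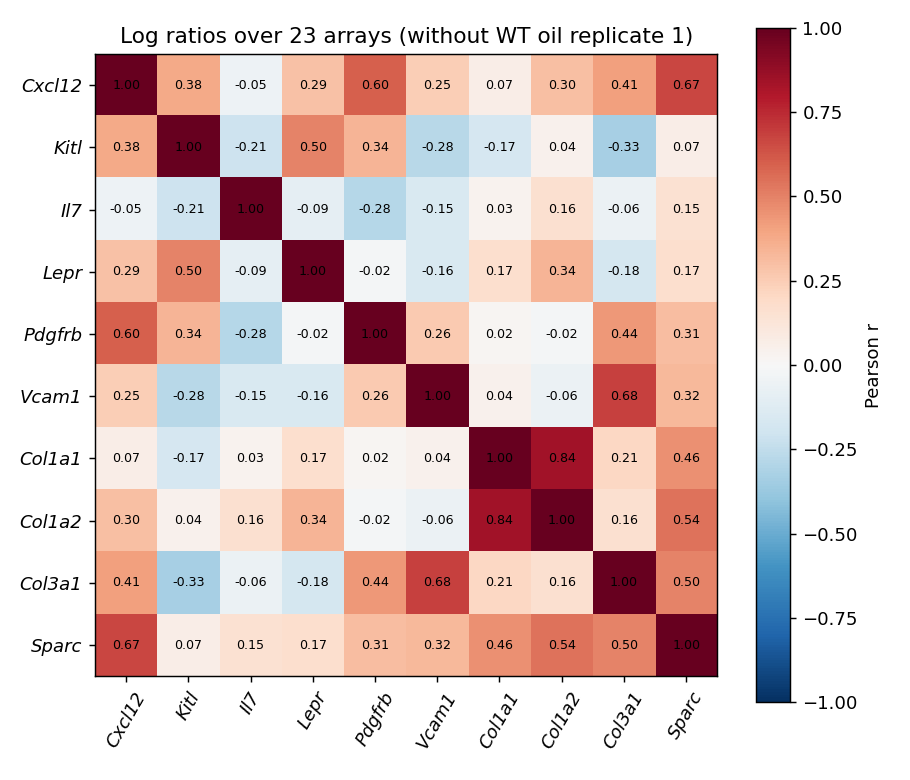
Pearson correlation of log ratios between the 10 genes over 23 arrays, without WT oil replicate 1. Col1a1 and Col1a2 have the highest value, 0.84.

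The authors' deposited table gives 9 differences between groups and no values per array. In the authors' deposited table Col3a1 stood at 3.16 for oil-treated Cyp1b1-null against WT oil, 3.28 for double-null oil against WT oil and 1.55 for Cyp1a1-null BP against oil. For Vcam1 the authors' deposited table has 0.70, 0.72 and 0.79 in the same order, and for WT TCDD against WT oil it has -2.69 for Lepr, -2.45 for Col1a2, -2.22 for Col1a1, -1.26 for Sparc and -1.25 for Cxcl12. These TCDD values were the lowest among members there. Computed here with all arrays, the last 4 were -0.53, -0.76, 0.50 and 0.69, and -1.29, -1.39, -0.46 and -0.52 without WT oil replicate 1. Lepr was well above background on 0 of 3 TCDD arrays, so its difference is not given. Across probes, the authors' deposited table correlated with the differences computed here at r from 0.20 to 0.64 for its 6 comparisons with WT oil using all arrays, and from 0.65 to 0.81 without WT oil replicate 1. In the 6 comparisons with WT oil, 4 to 7 of 10 members had the sign of the authors' deposited table with all arrays, and 7 to 9 without that array. The lowest count with all arrays was for WT TCDD, and WT BP and double-null oil had 7 in both fits.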

How the data were processed

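Log ratios of 24 two-colour arrays in 10 groups were analysed. The authors' deposited array files hold intensity values (mean spot signal and median local background of each channel) and processed signals, made per the file headers by Feature Extraction 9.1.3.1 on 20 arrays and 10.7.3.1 on 4. What the authors deposited for comparisons holds log2 differences for 9 comparisons, and limma is named in the submitters' processing notes. Their direction is that of the log ratios here, their column medians were -0.07 to 0.05, and no source used here gives their normalization or centring. No column of sample values was left unused (0).

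Background was subtracted with normexp (offset 50) and log2(Cy3/Cy5) normalized by loess within arrays, with controls left out, in R 4.3.3 with limma 3.58.1, statmod 1.5.0 and the package data.table in version 1.17.8. The brightest probe of a gene was used; a gene was tested if its Cy3 was well above background on at least 3 arrays. One mean per group was fitted over all 24 arrays, p-values were adjusted by Benjamini and Hochberg over 24474 genes, and adjusted p under 0.05 was called. That fit held no term for slide. Values after ± are standard errors of that fit. Percentiles in channel comparisons use each array's 75th. The single double-null oil array took its spread from the rest of the arrays, and 13 genes had no value there. The number of arrays limits the precision.

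Members and lists were chosen with earlier results of these data known. All members are described on every array, log2 changes are given for called members, and for others singled out after their values were seen, and up to 4 called genes per list with the smallest adjusted p are named. One such gene of the niche list is not reported here. Deviations of equally numbered arrays from their group means correlated at -0.24 to 0.33 over 25 pairs, so the numbers were not used to pair arrays. Alternatives were other background, normalization, filter and probe rules, slide and replicate blocks, and leaving out arrays.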

Additional observations from a re-analysis of the deposited data

How the results depend on the processing

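The count of members called stayed at 1 for oil-treated mice labelled Cyp1b1-null against WT oil, and at 0 elsewhere, under no background subtraction, no filter, the mean of probes, Aquantile, processed signals with all arrays and the replicate block (1 pair called in all 140). Leaving out 1 array at a time gave 0 to 4 members for Cyp1b1-null oil and for Cyp1a1-null oil against WT oil, 0 to 2 for Cyp1a1-null BP against oil, and 0 to 1 for WT DMBA, WT TCDD and double-null oil against WT oil; a single remaining array took its spread from the rest. For Cyp1b1-null oil the count was 0 with slide as a random block, with Cy3 alone and with only the groups compared, and 2 without WT oil replicate 1 under processed signals or the replicate block. Cyp1a1-null BP against oil had 2 and double-null BP against Cyp1a1-null BP had 1 under that replicate block. Double-null BP against oil had 1 with slide as a fixed term, or as a random block without WT oil replicate 1. Cyp1b1-null DMBA against oil had 2 with only the groups compared and 1 with processed signals without WT oil replicate 1, which gave 1 for WT TCDD against oil and 2 for WT DMBA against WT TCDD. The last had 2 with only the groups compared. Cy3 alone gave 5 for Cyp1b1-null DMBA against WT DMBA, 2 for the difference of DMBA responses, 7 for WT DMBA against WT TCDD and 5 for WT TCDD against oil. There Lepr in WT DMBA against WT TCDD turned to -1.60, against 0.30 with ratios. The 5th percentile of Cy3 differed between those arrays, and the cause was not tested. The count of all genes called for Cyp1b1-null DMBA against oil was 6 with all arrays and 1828 without WT oil replicate 1. Il7, Kitl and Lepr are limited by signal near background, and Col3a1 was well above it on only 1 of WT oil replicates 2 and 3.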
